A study of Mus musculus with 3 samples.

Results

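The chromobox genes measured here were Cbx1, Cbx3 and Cbx5, which encode the heterochromatin protein 1 (HP1) family, and Cbx2, Cbx6, Cbx7 and Cbx8, which encode Polycomb chromobox proteins. They were taken from the array as every non-control probe whose gene name was 1 of these 7 symbols, of 27962 gene names in all, which gave 17 of 41174 probes, 9 for HP1 genes and 8 for Polycomb genes. The RNA came from mouse mast cell progenitors (MCps) that were wild type (WT) or lacked p85α (p85α-/-), the regulatory subunit of class IA phosphoinositide 3-kinase encoded by Pik3r1. Bone marrow cells of both genotypes spent 7 days in culture with interleukin 3 (IL-3) at 10 ng/mL. Cells double positive for KIT and the IgE receptor were then sorted and kept with stem cell factor (SCF) at 100 ng/mL for 48 h. The few sorted cells made it necessary to amplify the cDNA by PCR, and each of 3 two-colour arrays compared 1 WT sample, always in the green dye Cy3, with 1 p85α-/- sample, always in the red dye Cy5. Genotype and dye therefore cannot be told apart, and all groups share the SCF stimulus, so no value here describes a response to SCF. The labels give 3 independent mice per genotype, and the titles pair WT and p85α-/- samples of the same replicate number on 1 array.

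HP1 proteins carry a chromodomain that binds histone H3 methylated at lysine 9, and a chromoshadow domain through which they pair and recruit other proteins. They are known for packing silent heterochromatin near centromeres. The Polycomb chromobox proteins carry a related chromodomain that reads methylation of histone H3 at lysine 27, and each can serve as the chromatin-binding subunit of Polycomb repressive complex 1 (PRC1), which keeps developmental genes silent in stem and progenitor cells.

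Values are log2 intensities after background correction and quantile normalization, and a ratio is p85α-/- minus WT on the log2 scale within 1 array. A level belongs to 1 probe and is not compared between probes as an amount of RNA. Positions are those of the array's own annotation, which names no genome build. The contrast was tested with limma over 41157 probes, and 0% passed an adjusted p of 0.05, the lowest adjusted p being 0.763. At a change of 1.5-fold with an unadjusted p under 0.05, 1829 probes passed (4.44%), 2.78% as higher and 1.66% as lower. The ratios of the 3 arrays correlated across probes with r between -0.03 and 0.17, and the mean was smaller than the SD for 79.7% of probes. The 4 Pik3r1 probes had mean ratios from -0.58 to 0.59, which does not check the genotype labels. The 10 measured mast cell markers had a summed log2 level of 14.97 to 15.45 in WT and 16.35 to 17.30 in p85α-/- samples, with no overlap, a sum that its brightest probes dominate. One by one, 9 of the 10 had a mean ratio above 0 (median 1.53), Mcpt4 being at -0.89, the groups overlapped in 7, and 3 (Kit, Fcer1g and Cma1) passed 1.5-fold with an unadjusted p under 0.05. The 8 macrophage markers had summed levels of 12.76 to 13.10 in WT and 12.29 to 12.63 in p85α-/- samples, also with no overlap. Of the 8, 3 had a mean ratio above 0, the median was -0.15 and 0 passed that threshold. For 9 neutrophil markers the ranges were 13.19 to 14.28 and 12.85 to 17.84, with a median ratio of 1.64. Of the 9, 6 were above 0 and 2 passed that threshold as higher. By the brightest probe of each gene, 5.22% of genes on the array passed it. For 6 basophil and eosinophil markers the ranges were 11.80 to 13.38 and 12.75 to 13.20, with a median ratio of 0.67, 4 above 0 and 0 past the threshold. None of these markers was below background in every channel, and their part in the chromobox values was not tested. In bulk samples, fewer cells of a type and less RNA per cell cannot be told apart.

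Cbx5, which encodes HP1α, had 4 probes, and these pointed in opposite directions. The gene family was chosen because of this, so the Cbx5 ratios are given as a description with no test. All 4 probes lay on chromosome 15, where Cbx5 is on the minus strand, so that the probe with the highest coordinate lies nearest to the start of the gene. By annotated position, the pair at the outer ends was A_52_P547538 and A_52_P544760, lower in p85α-/- samples on all 3 arrays. The pair between them, A_52_P676573 and A_51_P396432, was higher on all 3. Only 7 bases of A_52_P544760 are mapped, so its place in this order is uncertain.

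The probe nearest to the start, A_52_P547538 (NM_007626, chr15:103187346-103187405), was also the brightest of the 4. Its levels were 11.08, 12.18 and 10.77 in WT and 9.69, 10.85 and 10.45 in p85α-/- samples of arrays 1, 2 and 3. The groups overlapped, although within each array the p85α-/- sample was the lower. The ratios were -1.38, -1.33 and -0.32, a mean of -1.01 ± 0.60 (SD, n = 3). The probe furthest downstream, A_52_P544760 (NM_007626), lay 8744 bases away, and the annotation maps only 7 of its bases there (chr15:103178602-103178608). Its levels were 9.87, 14.004 and 9.80 in WT and 8.85, 11.66 and 8.83 in p85α-/- samples. Both genotypes were high on array 2, and the p85α-/- sample was lower each time. The ratios were -1.03, -2.35 and -0.96, a mean of -1.44 ± 0.78 (SD, n = 3).

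The pair between them was dimmer and behaved differently. A_52_P676573 (XM_001000807, chr15:103179894-103179953), 1292 bases upstream of the last probe, read 7.36, 7.91 and 7.29 in WT and 7.49, 8.20 and 9.37 in p85α-/- samples. Most of its mean ratio of 0.83 ± 1.08 (SD, n = 3) came from array 3, with single ratios of 0.13, 0.29 and 2.08, and the groups overlapped. A_51_P396432 (NM_007626, chr15:103178850-103178909), 248 bases upstream of the last probe, read 7.16, 7.33 and 6.96 in WT and 11.06, 7.45 and 7.03 in p85α-/- samples. The p85α-/- sample of array 1 stood far above the other 5, and the ratios of 3.90, 0.12 and 0.08 averaged 1.37 ± 2.20 (SD, n = 3). Its red signal before any correction was 5180 on that array, against 377 and 90.9 on the other two, so the high value was already present in the scan. Without array 1 the mean ratio of this probe was 0.10, and without array 3 that of A_52_P676573 was 0.21. All 4 probes were well above background in all 6 channels, and no spot of theirs was saturated.

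**Figure D1:**
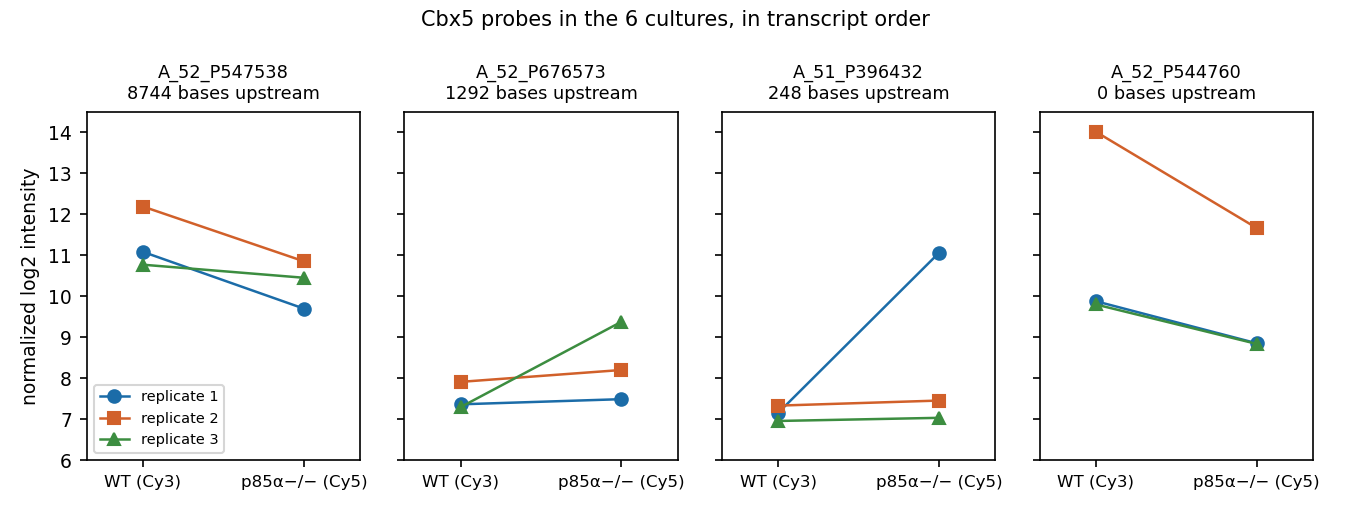
Log2 normalized intensity of the 4 Cbx5 probes, 1 panel each in order of annotated position, with WT and p85α-/- samples of the same array (replicate) joined by a line. The outer probes are lower in p85α-/- on all 3 arrays, whereas the pair between them is flat except for p85α-/- of array 1 at 11.06 and of array 3 at 9.37.

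Averaged over the 6 channels, the pair lower in p85α-/- was the brighter, but the ranks of the pairs overlapped. The directions of these probes led to the choice of the family, so this is a description only. The pair that was lower in p85α-/- ranked between the 70.9th and 99.3rd percentile of all probes of its channel, and the other pair between the 25.3rd and 91.7th. Distances to A_52_P544760 are uncertain, since only 7 of its bases are mapped. By these positions the pair 8744 bases apart had levels that moved together, with r = 0.88 over the 6 channels as a description. Both its probes were highest on array 2 in each genotype and lower in p85α-/- on each array. This r is therefore not separate from their shared direction. The closest pair, A_51_P396432 and A_52_P544760, 248 bases apart, differed in ratio by 4.93, 2.47 and 1.04 on the 3 arrays. The other probe pairs had r between -0.64 and -0.05 over the same 6 channels, which share arrays and scaling.

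Disagreement between probes was common on these arrays. The 4 mean ratios of Cbx5 spanned 2.81 on the log2 scale. Among the 625 genes with 4 probes the median span was 1.14, 6.24% spanned at least as much as Cbx5, and 81.1% had probes of both signs. Where all 4 probes were well above background in all channels, 10.5% of 105 genes spanned at least as much. Proximity was linked to likeness over the array as a whole, counted for probes mapped along 60 bases. That count leaves out A_52_P544760, of which 7 bases are mapped, and so the Cbx5 pair 248 bases apart. For probe pairs of 1 gene within 500 bases, both above background throughout, mean ratios had the same sign in 67.3% of 790 pairs (r = 0.57 across pairs, as a description), against 53.9% of 1072 pairs further apart but within 2000 bases (r = 0.10) and 53.8% of 2745 pairs beyond 2000 bases (r = 0.09).

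**Figure D2:**
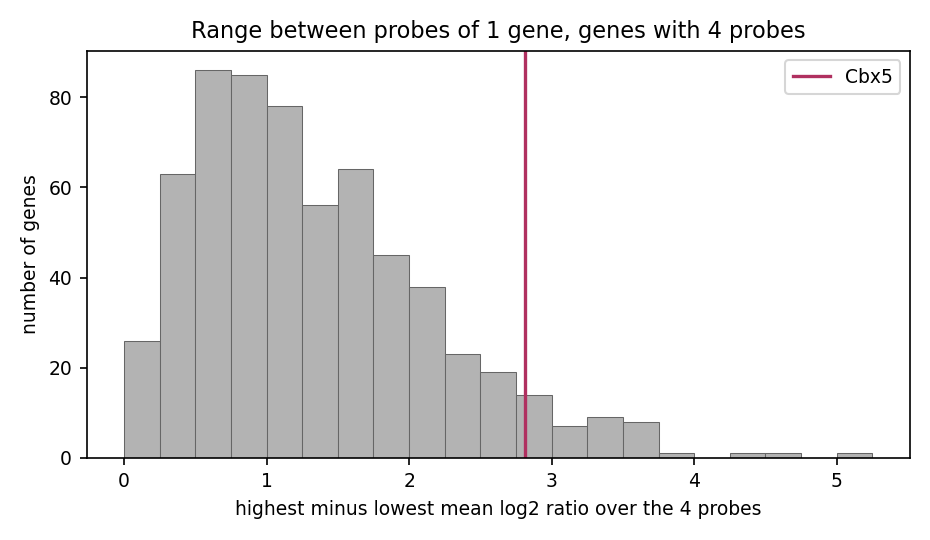
Distribution of the span between the highest and lowest mean log2 ratio (p85α-/- over WT) among genes with 4 probes, with Cbx5 marked. The Cbx5 span of 2.81 lies in the upper tail, where 6.24% of 625 genes reach it, and the median gene spans 1.14.

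Cbx1, which encodes HP1β, had 2 probes on chromosome 11, 6430 bases apart, and neither gave the same direction on the 3 arrays. The brighter, A_51_P495012 (NM_007622, chr11:96910548-96910607), read 10.26, 9.57 and 11.94 in WT and 9.03, 11.32 and 10.10 in p85α-/- samples. The p85α-/- sample was lower on arrays 1 and 3 and higher on array 2, and the mean ratio of -0.44 ± 1.92 (SD, n = 3) did not pass the test (adjusted p = 0.950, limma). A_52_P255804 (XM_990359, chr11:96916978-96917037) read 9.30, 11.11 and 7.08 in WT and 6.71, 10.47 and 7.49 in p85α-/- samples. Both genotypes were highest on array 2, and the mean ratio of -0.94 ± 1.52 (SD, n = 3; adjusted p = 0.908, limma) rested on array 1, without which it was -0.12. On that array the p85α-/- spot was not well above background, unlike in the other two p85α-/- samples, and the mean ratio was -1.95 from the scanner's processed signals and -2.27 from its own log ratios.

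Cbx3, which encodes HP1γ, an HP1 protein also found on transcribed genes, had 3 probes on chromosome 6. The dimmest, A_52_P397231 (AK017958, chr6:51434851-51434910), was the steadiest. It read 7.37, 7.10 and 7.48 in WT and 6.92, 6.79 and 6.92 in p85α-/- samples. The p85α-/- samples were lower on all 3 arrays and the groups did not overlap, but the difference was small, -0.44 ± 0.13 (SD, n = 3), and did not pass the test over all probes (adjusted p = 0.908, limma). Starting from the scanner's own processed signals, the same probe had a mean ratio of -1.70.

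The other Cbx3 probes, both made to NM_007624, were far brighter and varied widely. A_51_P117162, whose annotated position spans 3124 bases (chr6:51438597-51441720), read 13.82, 12.25 and 10.44 in WT and 10.54, 11.69 and 13.06 in p85α-/- samples. The order of the genotypes turned round between arrays 1 and 3, with ratios of -3.28, -0.56 and 2.62 and a mean of -0.41 ± 2.95 (SD, n = 3; adjusted p = 0.972, limma). A_51_P160328 (chr6:51446687-51446746), the most downstream, read 11.83, 9.59 and 10.33 in WT and 10.87, 12.51 and 12.68 in p85α-/- samples. It was higher in p85α-/- on arrays 2 and 3 and lower on array 1, a mean of 1.44 ± 2.09 (SD, n = 3; adjusted p = 0.908, limma). Without array 1 the mean was 2.64, past 1.5-fold with an unadjusted p under 0.05, and without array 2 it was 0.70. Both probes were above background in all 6 channels. On array 1 all 3 Cbx3 probes were lower in p85α-/- and on array 3 the 2 bright ones were higher. The span of the 3 mean ratios, 1.88, was reached by 14.1% of 2104 genes with 3 probes. The array also annotates a Cbx3 pseudogene, and whether RNA of such a near-identical copy bound these probes was not tested.

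**Figure D3:**
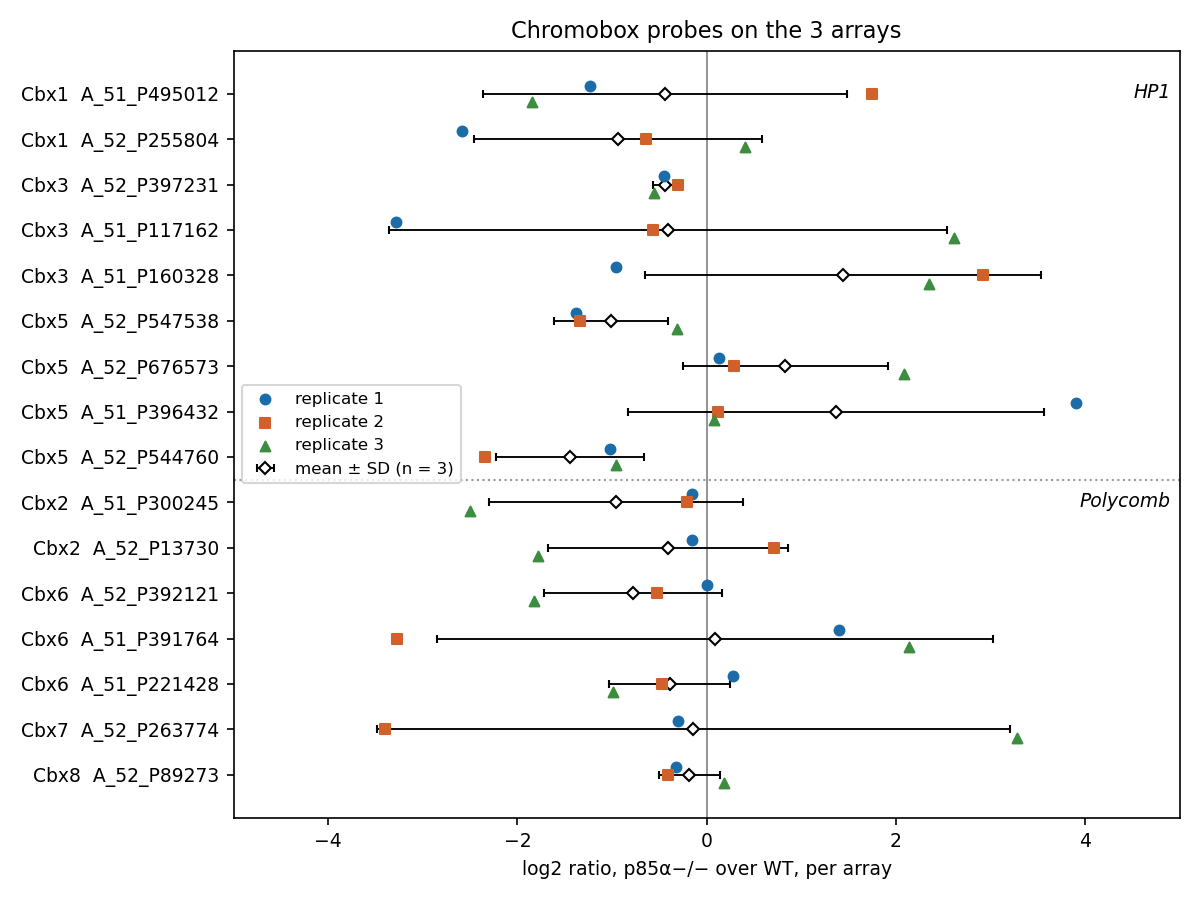
Log2 ratio (p85α-/- over WT) of each chromobox probe that was above background in any channel on arrays 1, 2 and 3, with the mean and SD as bars. The bars of most probes cross 0, and apart from Cbx5 the narrowest set away from 0 is Cbx3 A_52_P397231 at -0.44 ± 0.13.

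Of the Polycomb genes, Cbx2, whose product takes part in compaction of chromatin and in repression of Hox genes, had its brighter probe lower in p85α-/- on all 3 arrays. A_51_P300245 (NM_007623, chr11:119138059-119138118) read 9.47, 9.57 and 11.63 in WT and 9.31, 9.35 and 9.12 in p85α-/- samples. The groups did not overlap, and the WT sample of array 3 stood above the other 5 samples. The mean ratio was -0.96 ± 1.34 (SD, n = 3; adjusted p = 0.908, limma). It was -0.19 without array 3, and -0.16 on all arrays with median centring in place of quantile normalization. The second probe, A_52_P13730 (chr11:119140094-119140153), was well above background in 1 WT and 1 p85α-/- sample only. Its ratios were -0.15, 0.71 and -1.79, a mean of -0.41 ± 1.27 (SD, n = 3; adjusted p = 0.929, limma).

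Cbx6, which encodes a further Polycomb chromobox protein, had 3 probes on chromosome 15, all above background in every channel. The brightest, A_51_P391764 (chr15:79910278-79910337), read 10.10, 11.23 and 9.98 in WT and 11.50, 7.95 and 12.12 in p85α-/- samples. The p85α-/- sample of array 2 was the lowest of the 6 and that of array 3 the highest, and the ratios of 1.40, -3.28 and 2.14 averaged 0.09 ± 2.94 (SD, n = 3; adjusted p = 0.995, limma). A_52_P392121 (chr15:79910961-79911020) read 7.65, 7.97 and 9.45 in WT and 7.66, 7.45 and 7.62 in p85α-/- samples, with a mean ratio of -0.78 ± 0.94 (SD, n = 3; adjusted p = 0.908, limma). A_51_P221428 (chr15:79908323-79908382) read 8.71, 9.65 and 9.57 in WT and 8.99, 9.18 and 8.58 in p85α-/- samples, with a mean ratio of -0.39 ± 0.64 (SD, n = 3; adjusted p = 0.908, limma). Without array 3 these means were -0.26 and -0.092. On array 3, A_51_P391764 was higher in p85α-/- while the other two Cbx6 probes were lower.

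Cbx7, whose product represses the Ink4a/Arf locus and supports self-renewal, had 1 probe, A_52_P263774 (chr15:79999970-80000029). It read 6.76, 10.04 and 6.66 in WT and 6.45, 6.63 and 9.94 in p85α-/- samples. Each genotype had 1 high sample, WT on array 2 and p85α-/- on array 3, and the ratios of -0.30, -3.40 and 3.28 averaged -0.14 ± 3.34 (SD, n = 3; adjusted p = 0.994, limma). The probe was well above background in 1 WT and 2 p85α-/- samples. A further probe outside the rule, for transcript TC1499427 (chr15:80055030-80055081), carries a description naming the CBX7 protein. Its ratios were 0.56, 1.76 and -2.50, opposite in sign to those of the Cbx7 probe on each array, and it was named after its values were seen.

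Cbx8, another chromatin-binding subunit of PRC1, had 2 probes on chromosome 11. A_52_P89273 (AK051905, chr11:119145384-119145443) read 8.46, 8.87 and 8.41 in WT and 8.14, 8.45 and 8.60 in p85α-/- samples. The samples lay within a narrow range, and the mean ratio of -0.18 ± 0.32 (SD, n = 3) did not pass the test (adjusted p = 0.931, limma). The other probe, A_52_P229997 (NM_013926, chr11:119147508-119147567), was not well above background in any of the 6 channels, with levels of 6.33 to 6.50, and no fold is given for it.

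**Figure D4:**
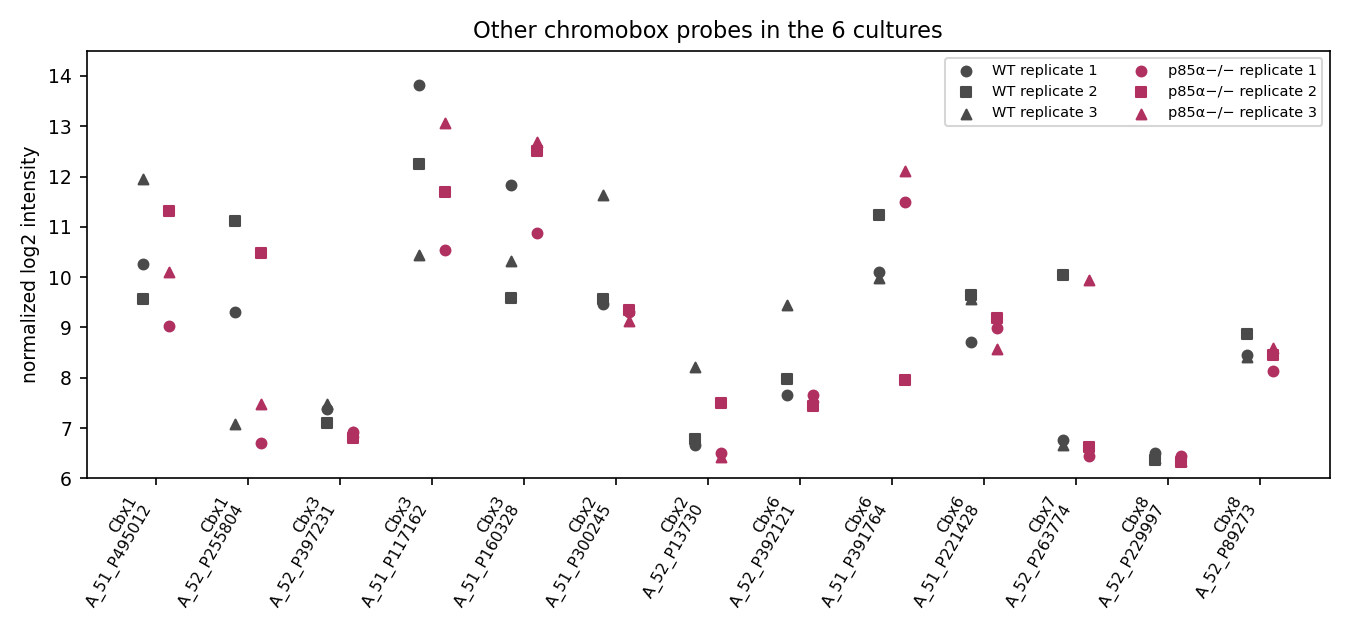
Log2 normalized intensity of the 13 chromobox probes other than those of Cbx5 in the 3 WT and 3 p85α-/- samples, where the replicate number is that of the array. The groups lie apart in Cbx3 A_52_P397231 and Cbx2 A_51_P300245, and 1 sample of each genotype lies far above the rest in Cbx7 A_52_P263774.

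Over the whole family, 0 of 17 probes passed an adjusted p of 0.05 (limma), as on the whole array, and 2 passed the change of 1.5-fold with an unadjusted p under 0.05, where 4.44% of all probes did. A mean of at least 1.5-fold in either direction was found in 8, of which 4 were Cbx5 probes, where 31.0% of all probes reached it. Both probes past the p threshold were the outer Cbx5 probes, whose ratios led to the choice of the family, so nothing is read from that count. Of the 17 probes, 13 had a mean ratio below 0, where 55.2% of all probes did, and 5 were lower on all 3 arrays, where 13.3% were. These counts include the Cbx5 probes and the Cbx8 probe that was never above background. Of the 12 remaining probes, 10 were below 0 and 2 were lower on all 3 arrays. By the brightest probe of each gene, 6 of 7 genes, Cbx5 among them, were below 0, where 56.9% were. The 2 probes higher on all 3 arrays, where 12.5% were, both belonged to Cbx5. Groups that did not overlap were found in 2 probes, Cbx3 A_52_P397231 and Cbx2 A_51_P300245, against a share of 10.5% on the array. Both were lower in p85α-/- samples. Of all probes tested, 5.94% were lower without overlap and 4.54% were higher without overlap. The median ratio was -0.44 over the 9 HP1 probes and -0.29 over the 8 Polycomb probes, against -0.05 over all probes tested. Without Cbx5 the HP1 median was -0.44 over 5 probes, and without the dim Cbx8 probe the Polycomb median was -0.39 over 7. With median centring of the log ratios in place of quantile normalization, 9 of the 17 probes were below 0 and the HP1 median was 0.36. These medians were not steady between arrays. The HP1 median was -1.03, -0.31 and 0.08, and the Polycomb median was -0.11, -0.44 and -0.52. The median SD over the 3 arrays was 1.27 per probe over the 17 member probes, those of Cbx5 among them, against 0.67 over all probes tested. It was 0.80 over the array's probes above background in all 6 channels, a mark that 13 of the 17 had.

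Other genes of the same machinery were followed by the brightest probe of each, with 5.22% of 27667 genes on the array past 1.5-fold at an unadjusted p under 0.05, 3.16% as higher and 2.06% as lower. None passed an adjusted p of 0.05 (limma), the lowest being 0.908 in each group. Among 16 genes of PRC1, 2 passed the unadjusted threshold as higher and 1 as lower, with a median ratio of 0.03. Phc2, a polyhomeotic subunit, had ratios of 2.87, 0.28 and 3.53, a mean of 2.23 ± 1.72 (SD, n = 3), but its second probe averaged -0.10. Kdm2b, which brings a PRC1 variant to CpG islands and is named Fbxl10 on the array, averaged 1.27 ± 0.66 (SD, n = 3), with no overlap between groups. Its 3 probes averaged from 0.071 to 1.27, with a mean of 0.87 over them. Scmh1, a Polycomb protein of the Scm type, averaged -1.05 ± 0.67 (SD, n = 3), also with no overlap, while its second probe averaged -0.12.

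Among 11 genes of Polycomb repressive complex 2, which places the lysine 27 mark, 0 passed the unadjusted threshold and the median ratio was 0.20. They ran from Phf19 at -0.60 ± 0.63 to Mtf2 at 1.08 ± 1.62 (SD, n = 3), both accessory subunits, and 4 Mtf2 probes spanned -0.52 to 1.80. Among 19 genes of lysine 9 methylation and HP1 partners, 1 passed as higher and 2 as lower, with a median of 0.22. This median was 0.0055 when dim probes were left out, and between -0.10 and 0.044 when 1 array was left out. Incenp, a centromere protein that binds HP1, averaged 0.998 ± 0.53 (SD, n = 3). Daxx, a histone H3.3 chaperone, averaged -1.21 ± 0.74, and Chaf1b, a subunit of the chromatin assembly factor 1, averaged -1.19 ± 0.63 (SD, n = 3). The groups overlapped for Incenp, Daxx and Chaf1b. The highest mean in that list, 1.57 ± 2.93 for the chromatin remodeler Hells, did not pass, and rested on a ratio of 4.92 on array 3. Of 8 known Polycomb target genes, 0 passed, with a median of 0.03 and a range from Hoxa9 at -0.63 ± 1.58 to Cdkn2b at 1.48 ± 1.90 (SD, n = 3).

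The probes most like the brightest Cbx5 probe over the 6 channels, by Pearson correlation of levels as a description, were those of E130309B19Rik (r = 0.996), Ppa2 (0.983), Nrap (0.979), C030018G13Rik (0.978) and 1110033M05Rik (0.978). They were picked from 22741 probes that were above background in all 6 channels and carried a gene name other than an accession. The 6 channels share 3 arrays and their scaling.

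The 6 alternatives that changed the signals or their scaling on all arrays left the sign of each Cbx5 ratio as it was, but the sizes moved. Of these, 1 used the deposited series table, whose columns for replicates 2 and 3 may not hold the values of these samples. Leaving out 1 array could not turn a sign, since each of these probes had the same sign on all 3.

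**Figure D5:**
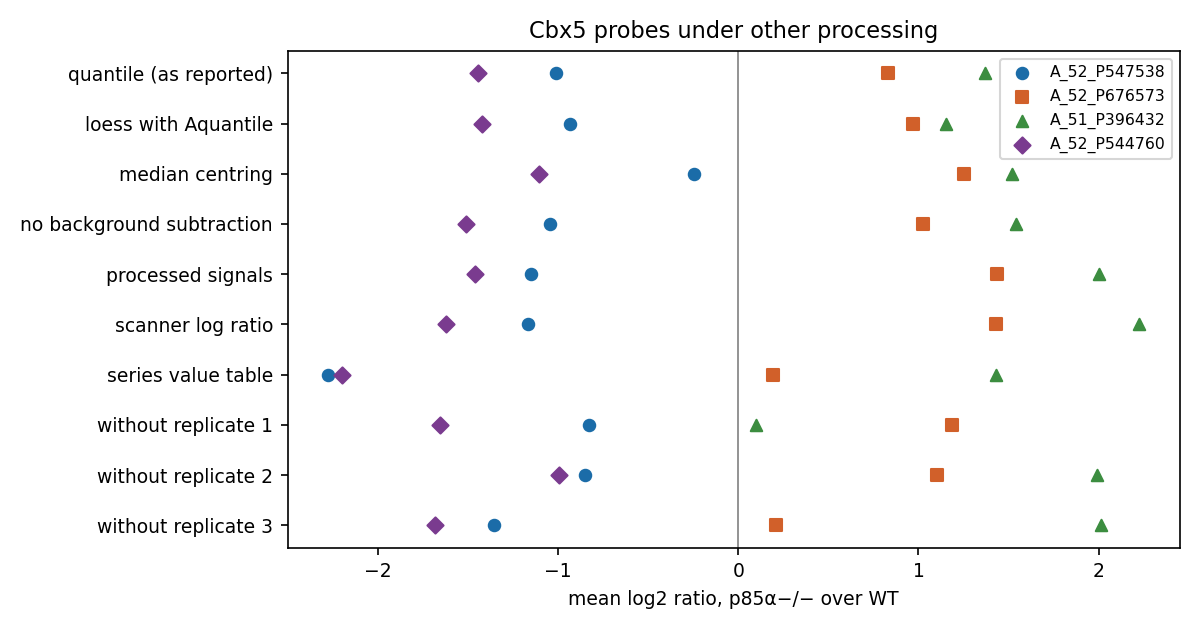
Mean log2 ratio (p85α-/- over WT) of the 4 Cbx5 probes under processing settings that change the signals, the scaling or the arrays used, with 0 as a line. The size of the ratios moves with the setting: A_51_P396432 drops to 0.10 without array 1 and A_52_P547538 lies at -0.24 with median centring.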

How the data were processed

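The data are 3 two-colour Agilent whole mouse genome 4x44K arrays on 1 slide, each with a WT sample in Cy3 and a p85α-/- sample in Cy5, and no dyes were swapped. Per the file headers, the authors deposited scanner output of Agilent Feature Extraction, version 9.5.1.1, with the intensity and local background of each spot in both channels and a log10 ratio of red over green. A deposited table of the whole series holds log ratios of unstated scale, of which the column of replicate 1 equalled the scanner ratio, as log10, on all 40929 probes with 1 spot, within 1.5e-05, whereas replicates 2 and 3 did so on 190 and 226. Those 2 columns may not hold the values of the named samples, so the table served only as an alternative.

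Normexp with an offset of 50 corrected mean intensities for the background median, and quantile normalization, which the authors name, followed over all 6 channels. Control spots and spots with outlier flags were dropped, repeated spots were reduced to their mean, and log2 ratios within arrays were tested with limma 3.58.1 in R 4.3.3, paired by array, with Benjamini-Hochberg adjustment over 41157 probes. A second threshold was a change of 1.5-fold with an unadjusted p under 0.05. Well above background is the scanner's own mark, which 69.4 to 85.3% of spots had in Cy3 and 77.3 to 93.8% in Cy5. No member spot was saturated, and the number of arrays limits the precision.

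The probes of the 7 genes and the gene lists were chosen with earlier results of these data known. Named genes were every member probe, Pik3r1, the genes of each pathway list (not of the cell markers) past the second threshold with 1 sign on all arrays, its highest and lowest gene by mean ratio, and the 5 named genes most correlated with the brightest Cbx5 probe. The 4 mast cell markers were named after their values were seen. Alternatives were other background corrections and normalizations, the scanner ratio, the series table, outlier spots kept, dim probes left out, the methods' t-test, an unpaired fit, another choice of probe and each array left out. Probe sequences were not used here.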

Additional observations from a re-analysis of the deposited data

How the results depend on the processing

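Of 16 alternatives, 14 gave ratios for member probes. No probe of the array passed an adjusted p of 0.05 (limma) under any of them or under the methods' t-test, with the lowest adjusted p at or above 0.368. Of the 14, 5 left every Cbx5 ratio as it was. Under the 6 that changed signals or scaling the 4 Cbx5 signs did not turn, but A_52_P547538 moved to -0.24 with median centring and to -2.28 with the series table. The pairing of the 2 samples of an array comes from their shared hybridization. With no replicate block, the 6 channels as separate samples, 0 member probes passed 1.5-fold with an unadjusted p under 0.05, against 2 with it, both of Cbx5, for which such counts are a description only.

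Member probes past it were 0 with loess and with the unpaired and the paired t-test, and 1 in 6 other settings. That 1 was Cbx3 A_51_P160328 with median centring (2.48), Cbx3 A_52_P397231 with processed signals (-1.70) and with the scanner ratio (-1.50), Cbx5 A_52_P544760 with no background subtraction and with dim probes left out, and Cbx5 A_52_P547538 with the brightest probe of each gene. The series table gave 3, the outer Cbx5 pair and Cbx1 A_51_P495012. Leaving out 1 array gave 1 to 3. With the brightest probe of each gene 6 of 7 ratios were below 0. Over the array, 1829 probes passed, 1125 in the unpaired and 819 in the paired t-test at the same thresholds, and 1557 to 3165 when 1 array was left out, the most without array 2. The share of higher calls was 62.6%, and 91.1% with median centring, 47.5% without array 2.

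With median centring the HP1 median was 0.36, that of PRC1 0.63 and that of Polycomb targets 0.36. Ratios turned positive for Cbx1 A_51_P495012 (0.36), Cbx3 A_51_P117162 (0.62), Cbx6 A_51_P221428 (0.14) and Cbx8 A_52_P89273 (0.32). The columns of the series table for replicates 2 and 3 may not hold these samples' values. With it the HP1 median was -2.15, the Polycomb median 0.20 and that of Polycomb targets 0.67. There, Cbx3 A_51_P160328 was -2.15, Cbx2 A_52_P13730 1.26, Cbx6 A_52_P392121 0.81, A_51_P391764 -2.29 and A_51_P221428 0.998, and Cbx8 A_52_P89273 1.16. With processed signals Cbx6 A_51_P391764 was -0.094 and the median of Polycomb repressive complex 2 was 0.48. With the scanner ratio Cbx7 A_52_P263774 was 0.58 and that median 0.45. The cause was not tested.

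When 1 array was left out, the HP1 median ran from -0.51 to -0.05, the Polycomb median from -0.55 to -0.21, that of PRC1 from -0.068 to 0.14, of Polycomb repressive complex 2 from 0.097 to 0.49, of the lysine 9 list from -0.10 to 0.044 and of Polycomb targets from -0.090 to 0.19. Probes that changed sign were Cbx3 A_51_P117162 (-1.92 to 1.03), Cbx2 A_52_P13730 (-0.97 to 0.28), Cbx7 A_52_P263774 (-1.85 to 1.49), Cbx1 A_51_P495012 (-1.54 to 0.26) and Cbx6 A_51_P391764 (-0.94 to 1.77, and -0.57 without array 1). The last 2 passed 1.5-fold with an unadjusted p under 0.05 without array 2. Of the 17 member probes, 13 were well above background in all 6 channels.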
